A study of Mus musculus with 8 samples.

Results

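The TGF-beta response genes described here are 9 genes whose transcripts are known to rise, or whose products act, when cells receive transforming growth factor beta. They were taken by name, and each was read from the probe set with 1 gene symbol that had the highest mean over the 8 arrays. Of the 9 genes, 6 were measured (Tgfbi, Ltbp2, Smad7, Skil, Tgfb2 and Bhlhe40), out of 17097 genes measured in all. Tgfb1i1, a focal adhesion protein, Pmepa1, a membrane-bound feedback inhibitor, and Thbs1, a matrix protein that releases active ligand, had no such probe set in the table used and were not analysed here. All values are log2 signals from single-channel 3' expression arrays, and a difference of 1 on this scale is 2-fold.

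The study set 3 lines of induced hepatocyte-like cells (iHeps) beside mouse embryonic fibroblasts (MEFs) and primary hepatocytes (PH), 1 array per sample. The 2 MEF samples came from C57/B6 embryos at day 13.5, and the label of MEF 1 adds that head and internal organs were taken off. The iHep lines were fibroblasts that received retroviruses coding for liver transcription factors and were studied at passage 10: line 4a3 carried Hnf4a and Foxa3, line 4a3CK carried Hnf4a, Foxa3, c-Myc and Klf4, and line 4a1CK carried Hnf4a, Foxa1, c-Myc and Klf4. The 3 PH samples came from livers of male C57/B6 mice aged 8 to 10 weeks, and the one without a number is called PH 3 here. The lines and the PH samples were kept in the same hepatocyte medium, which held serum, dexamethasone, nicotinamide, insulin-transferrin-selenium and the growth factors FGF4, HGF and EGF. The medium of the MEFs, the strain of the fibroblasts behind the lines and whether a line is 1 clone were not stated. Separate animals or cultures are not named for the samples of a group. The p-values therefore reflect the spread among these 8 arrays alone, which may be technical, and the small number of arrays limits the precision.

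TGF-beta is secreted in a latent form that is stored in the matrix by latent TGF-beta binding proteins and fibrillins. Once released, it joins the type II and type I receptors TGFBR2 and TGFBR1, which activate SMAD2 and SMAD3 to enter the nucleus with SMAD4, while SMAD7 and the corepressors SKI and SKIL damp the signal. In fibroblasts the pathway is known for driving matrix production, and in hepatocytes for restraining growth and for a shift towards mesenchymal traits.

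For 3 of the 6 measured genes (Tgfbi, Ltbp2 and Tgfb2) RefSeq's table for build GRCm38.p6 held the stretch around the gene start. The 250 bases before the start are shown because Tgfbi and Ltbp2 are the members that fell between MEFs and hepatocytes and Tgfb2 is the ligand of the group. The Tgfbi stretch is chr13:56609336-56609585 on the plus strand, that of Ltbp2 is chr12:84876492-84876741 on the minus strand, and that of Tgfb2 is chr1:186705990-186706239 on the minus strand. Each is written 5′ to 3′ along the gene, and capitals mark matches on either strand to any of the 7 searched motifs.
Tgfbi: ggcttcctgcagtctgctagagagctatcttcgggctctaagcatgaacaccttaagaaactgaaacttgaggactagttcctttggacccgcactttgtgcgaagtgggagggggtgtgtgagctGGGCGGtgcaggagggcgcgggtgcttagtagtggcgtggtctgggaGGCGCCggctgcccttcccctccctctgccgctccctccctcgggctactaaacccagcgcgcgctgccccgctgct
Ltbp2: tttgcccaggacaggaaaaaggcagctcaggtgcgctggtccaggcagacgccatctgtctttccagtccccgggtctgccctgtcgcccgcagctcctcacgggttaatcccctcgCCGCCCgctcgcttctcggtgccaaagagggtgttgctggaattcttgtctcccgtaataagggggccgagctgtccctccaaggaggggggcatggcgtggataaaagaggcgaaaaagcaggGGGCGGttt
Tgfb2: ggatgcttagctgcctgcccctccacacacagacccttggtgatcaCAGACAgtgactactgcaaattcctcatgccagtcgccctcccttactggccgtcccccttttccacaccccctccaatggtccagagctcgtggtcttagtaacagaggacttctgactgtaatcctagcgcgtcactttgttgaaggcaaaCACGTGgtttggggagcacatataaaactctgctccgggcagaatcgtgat
The motifs were searched on both strands over 300 bases, 250 before and 50 after the start. They were the palindromic Smad box GTCTAGAC, the short Smad box CAGACA, the repeated Smad box AGACAGAC, the GC-rich Smad site GGCGCC, the AP-1 site TGANTCA, the E-box CACGTG and the GC box GGGCGG. The short Smad box can overlap with the repeated one. Tgfbi held the GC-rich Smad site from base -77 to -72 before its start, a motif found in 11.9% of 32851 promoters. It also held the GC box from -124 to -119 and, on the other strand, from 16 to 21 after the start. Ltbp2 held the GC box from -133 to -128, on the other strand, and from -9 to -4, and 35.7% of promoters held that motif. Tgfb2 held the short Smad box from -204 to -199 (in 21% of promoters) and the E-box from -51 to -46 (in 7.15%). None of the 3 stretches held the palindromic Smad box (in 0.213% of promoters), the repeated one (in 1.88%) or the AP-1 site (in 7.81%). These are matches of letters and not measured binding. The GC content of the printed bases was 62.4% for Tgfbi, 61.6% for Ltbp2 and 53.6% for Tgfb2.

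Signal levels differed between arrays. The median of all probe sets lay between 4.23 and 4.24 on MEF 1, MEF 2, PH 1 and PH 2, between 4.40 and 4.45 on the 3 lines, and at 5.06 on PH 3. The median of 23 nonspecific control probe sets moved with it, from 2.83 to 3.06 on the other arrays and 3.53 on PH 3. PH 1 and PH 2 were close to each other, with a standard deviation of their differences over genes of 0.16, while MEF 1 and MEF 2 gave 0.57 and PH 1 and PH 3 gave 0.55. The labelled cell types were checked on 8 markers each. Fibroblast markers averaged 9.55 and 8.66 in the MEFs and 4.01 to 5.11 in all other samples. Line 4a1CK kept some of them, with Twist1 at 7.5 (7.40 and 8.31 in the MEFs), Prrx1 at 7.76 and Col3a1 at 7.12. Its Thy1, Cdh11, Pdgfra, Pdgfrb and Lum were low, at most 4.51. Hepatocyte markers averaged 4.09 and 4.10 in the MEFs and 10.8 or more in PH. Among the lines, hepatocyte markers averaged 8.36 in 4a3, 7.46 in 4a3CK and 4.90 in 4a1CK. Alb stood at 9.30 in 4a3 but at 3.80 in 4a3CK and 4.01 in 4a1CK, beside 4.12 and 4.01 in the MEFs. Ttr was at 4.76 in 4a3CK and 4.66 in 4a1CK. Apoa1, Trf, Fgb and Serpina1a were far above the MEFs in 4a3CK, and only Apoa1, at 10.39, was so in 4a1CK. Ambp was at the MEF level, 3.64 to 3.73, in all 3 lines.

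The first question was how the response genes differ between fibroblasts and hepatocytes. Tgfbi and Ltbp2, which both code for secreted matrix proteins, were lower in PH, by 4.91 and 4.12 on the log2 scale, and the other 4 genes did not pass. Tgfbi codes for a matrix protein that binds collagens and integrins and is named for its induction by TGF-beta. Its log2 signal was 8.48 and 8.80 in MEF 1 and MEF 2 and 3.60, 3.63 and 3.96 in PH 1, PH 2 and PH 3. Both MEF samples lay far above all PH samples, which stood close to the nonspecific controls. The difference of -4.91 ± 0.89 (SE of the model over 8 arrays, n = 3 against 2) had an adjusted p of 0.0134 in limma. It lost the call without MEF 1 (difference -5.07, limma adjusted p = 0.0721), without MEF 2 (-4.75, adjusted p = 0.0884) and without PH 3 (-5.02, adjusted p = 0.0683), with the direction kept in each. On a second Tgfbi probe set, described with the lines, the difference was -2.60 (limma adjusted p = 0.00461).

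Ltbp2 codes for a fibrillin-binding matrix protein of the latent TGF-beta binding protein family that, unlike its relatives, does not hold the latent ligand. Its log2 signal was 9.72 and 7.99 in MEF 1 and MEF 2, against 4.49, 4.42 and 5.29 in PH 1, PH 2 and PH 3. The groups did not overlap, and the MEF samples differed by more from each other than the PH samples did. The difference was -4.12 ± 0.49, with a limma adjusted p of 0.0016. The mean of the fibroblast markers differed between the MEF samples in the same direction, with 9.55 in MEF 1 and 8.66 in MEF 2. Twist1 (7.40 and 8.31) and Prrx1 (9.35 and 9.49) went the other way. The part of these markers in the Ltbp2 result was not tested. In these bulk samples, fewer cells of a type and less RNA per cell cannot be told apart.

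The 2 members that damp the signal showed no difference that passed. Smad7, the inhibitory Smad that blocks the type I receptor and is itself induced by the pathway, measured 7.17 and 8.18 in the MEFs and 7.12, 7.14 and 7.95 in PH. These groups overlapped, and the difference was -0.27 ± 0.43 (limma adjusted p = 0.733). Skil codes for SnoN, a corepressor that binds Smad complexes, and measured 8.72 and 8.93 in the MEFs and 8.70, 8.71 and 10.43 in PH. Its PH samples lay at the MEF level except PH 3, the array with the high median, and the difference was 0.45 ± 0.52 (limma adjusted p = 0.672). Without PH 3 the Skil difference was -0.12.

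Tgfb2, the ligand among the members, was dim on all arrays, with 3.81 and 4.83 in the MEFs and 4.13, 4.19 and 5.14 in PH. Its values fell in the range of the nonspecific controls, the brightest of which reached 4.96 to 6.82, and the difference of 0.16 ± 0.39 (limma adjusted p = 0.819) changed sign when array medians were subtracted (-0.11). Bhlhe40 codes for a transcriptional repressor of the circadian network that many signals induce, TGF-beta among them. It measured 8.07 and 7.98 in the MEFs and 8.57, 8.52 and 9.98 in PH. All PH values lay above both MEF values, and the difference of 1.00 ± 0.45 did not pass (limma adjusted p = 0.322).

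Over all genes, 2.47% were lower in PH than in MEFs by the rule used (limma adjusted p under 0.05 and a log2 difference of at least 1) and 3.37% were higher. Of the 6 members, 2 were lower and 0 were higher. The median difference of the members was -0.055 beside 0.25 over all genes. Relative to that shift of all genes, the Tgfbi difference was -5.16, that of Ltbp2 -4.37 and that of Bhlhe40 0.75. With array medians subtracted, the share of higher calls among all called genes went from 57.7% to 41.6%, and with quantile normalization to 46%.

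**Figure D1:**
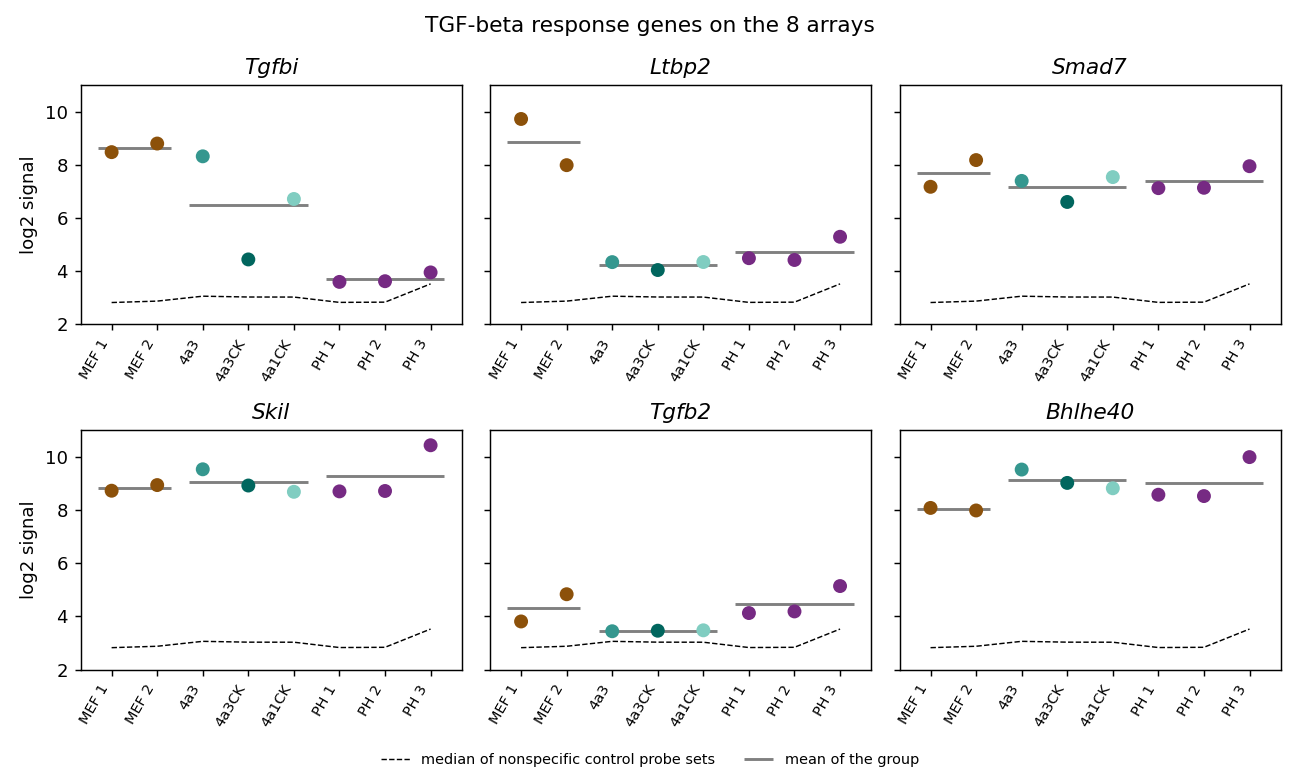
Log2 signal of the 6 measured TGF-beta response genes (y axis) on each of the 8 arrays (x axis, coloured by sample group), with the group mean as a bar and the median of the nonspecific control probe sets as a dashed line. Tgfbi is at 8.32 in line 4a3, 6.71 in 4a1CK and 4.44 in 4a3CK, while Ltbp2 is between 4.05 and 4.35 in all 3 lines and between 7.99 and 9.72 in the MEFs.

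The second question was where the iHep lines stand between fibroblasts and hepatocytes. Ltbp2 was low in every line, and Tgfbi was spread over most of the way between fibroblasts and hepatocytes. Ltbp2 measured 4.34 in 4a3, 4.05 in 4a3CK and 4.35 in 4a1CK, all below the lowest MEF value of 7.99. The difference from the MEFs was -4.61 ± 0.49 (limma adjusted p = 0.00112, n = 3 against 2), and the call held under each alternative fitted, with adjusted p-values up to 0.0228. Against PH, Ltbp2 differed by -0.49 ± 0.44 (limma adjusted p = 0.638), although all lines lay below all PH samples.

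Tgfbi measured 8.32 in 4a3, 6.71 in 4a1CK and 4.44 in 4a3CK. Line 4a3 was just below the MEFs (8.48 and 8.80), 4a3CK was just above PH (3.60 to 3.96), and 4a1CK lay between them. The mean of the lines was 6.49 ± 1.95 (SD, n = 3), against an SD of 0.23 in the MEFs and 0.20 in PH. The difference from the MEFs, -2.14 ± 0.89 (limma adjusted p = 0.216), and that from PH, 2.77 ± 0.80 (adjusted p = 0.0745), did not pass, although the lines overlapped with neither group. Without line 4a3 the difference from the MEFs passed (-3.06, limma adjusted p = 0.0447), and without 4a3CK the difference from PH passed (3.79, adjusted p = 0.00213). The mean of the fibroblast markers was 4.09 in 4a3, 4.18 in 4a3CK and 5.11 in 4a1CK. The lines 4a3 and 4a3CK differed by less than 0.1 on each fibroblast marker except Prrx1 (4.82 and 5.77), and the part of these markers in the Tgfbi values was not tested.

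Tgfbi was read by a second probe set, which measured 5.77 and 6.05 in the MEFs, 4.48 in 4a3, 3.15 in 4a3CK, 3.67 in 4a1CK and 3.16, 3.17 and 3.60 in PH. Both probe sets put the lines in the same order, 4a3 above 4a1CK above 4a3CK. They differ in where the lines stand, since on the second one 4a3CK was at the level of PH and 4a3 was well below the MEFs. The chosen probe set is of the kind that can bind several transcripts, and without such probe sets the difference of the lines from the MEFs was -2.14 with a limma adjusted p of 0.014, and that from PH 0.46 (adjusted p = 0.547).

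**Figure D2:**
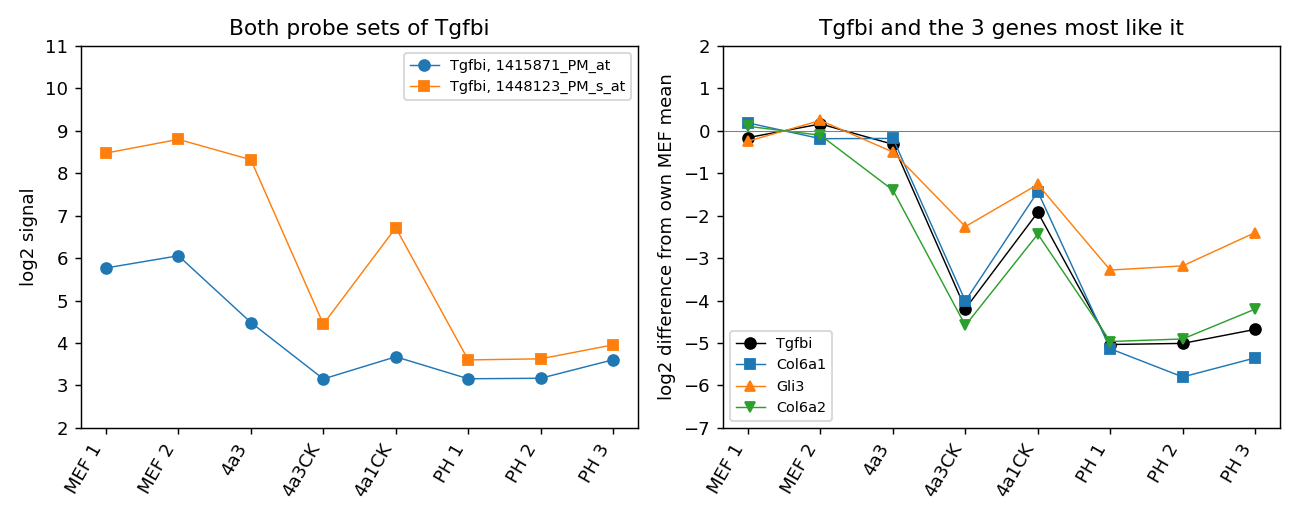
Left, log2 signal (y axis) of both probe sets of Tgfbi on the 8 arrays (x axis); right, the log2 difference of Tgfbi and of the 3 genes most like it from each gene's own MEF mean. Lines 4a3, 4a1CK and 4a3CK are at 8.32, 6.71 and 4.44 on the probe set ending in s_at and at 4.48, 3.67 and 3.15 on the other one.

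Smad7 measured 7.39 in 4a3, 6.60 in 4a3CK and 7.54 in 4a1CK and differed from the MEFs by -0.50 ± 0.43 (limma adjusted p = 0.551). Skil measured 9.53 in 4a3, 8.92 in 4a3CK and 8.68 in 4a1CK and differed by 0.21 ± 0.52 (limma adjusted p = 0.842). Line values of both genes overlapped with the MEF values. Tgfb2 was tightly grouped in the lines, at 3.44, 3.46 and 3.48 in 4a3, 4a3CK and 4a1CK. These values lay below both MEF values and all PH values, and the differences were -0.86 ± 0.39 from the MEFs (limma adjusted p = 0.257) and -1.02 ± 0.35 from PH (adjusted p = 0.126). With array medians subtracted the Tgfb2 difference from the MEFs passed (-1.05, limma adjusted p = 0.0479), as it did with quantile normalization (-1.05, adjusted p = 0.0461), at signal levels close to the controls. With the submission in which each array was deposited as a block, it passed from the MEFs (-1.36, limma adjusted p = 0.00798) and from PH (-1.69, adjusted p = 0.00408).

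Bhlhe40 measured 9.52 in 4a3, 9.02 in 4a3CK and 8.81 in 4a1CK, all above both MEF values. The difference from the MEFs was 1.09 ± 0.45 and did not pass (limma adjusted p = 0.211), but it passed without PH 3 in the model, with an adjusted p of 0.0165. Against PH the lines differed by 0.09 ± 0.40 (limma adjusted p = 0.954) and overlapped with them. Smad7 and Skil also overlapped with PH, with differences of -0.22 ± 0.38 and -0.24 ± 0.47 (limma adjusted p = 0.853 and 0.875).

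Against the MEFs, 1 of the 6 members was lower in the lines and 0 were higher, beside 4.47% and 1.98% of all genes. Against PH, 0 members were lower and 0 higher, beside 5.64% and 1.49% of all genes. The members' median difference was -0.68 from the MEFs and -0.23 from PH, beside 0.16 and -0.089 over all genes. At an unadjusted limma p under 0.05, the members were 3 of 6 against the MEFs (Tgfbi, Ltbp2 and Bhlhe40), 2 of 6 against PH (Tgfbi and Tgfb2) and 2 of 6 for PH against the MEFs (Tgfbi and Ltbp2). By the same rule, in either direction, 20.9%, 20.7% and 16.4% of all genes fell under it. With quantile normalization, higher calls among all called genes went from 30.7% to 38.8% for the lines against MEFs and from 20.8% to 39.7% for the lines against PH, and to 30.2% and 36.3% with array medians subtracted. The 2 comparisons with the MEFs share the MEF arrays and the 2 with the lines share the line arrays.

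**Figure D3:**
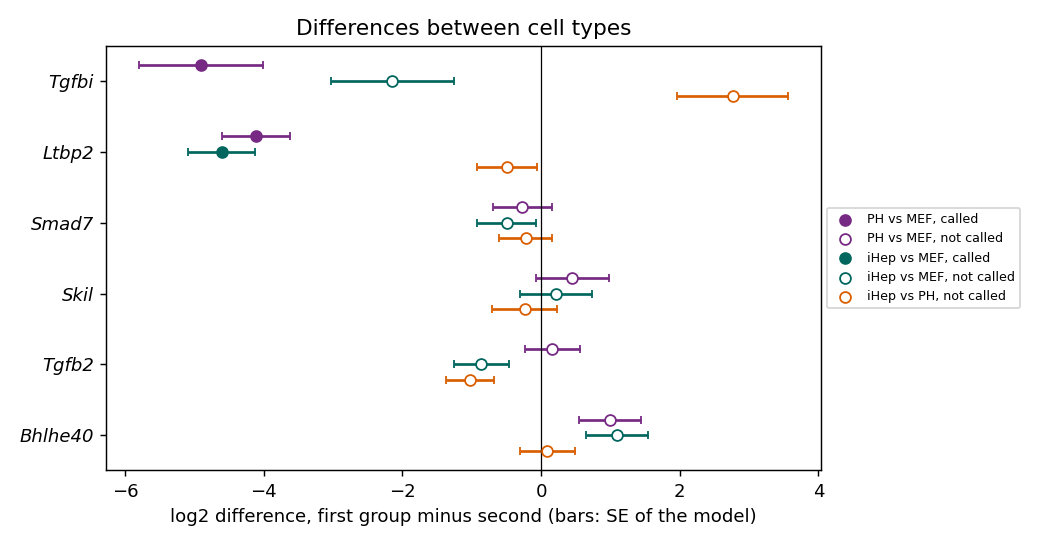
Log2 difference (x axis, first group minus second) of each measured response gene (y axis) in the 3 comparisons, with bars of 1 SE of the limma model and filled points for genes that passed. Ltbp2 is filled for PH against MEF and iHep against MEF, at -4.12 and -4.61, Tgfbi is filled for PH against MEF only, at -4.91, and no gene is filled for iHep against PH.

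The arrays came in 2 submissions, by their record numbers. MEF 2, the 3 lines and PH 3 were in the first and MEF 1, PH 1 and PH 2 in the second, so each group comparison can be read within a submission, without a test. For PH minus MEF, Tgfbi gave -4.84 in the first and -4.86 in the second, and Ltbp2 gave -2.69 and -5.26. Bhlhe40 gave 2.01 and 0.47, and Skil gave 1.50 and -0.018. Smad7 gave -0.23 and -0.044, and Tgfb2 gave 0.31 and 0.35. Tgfbi thus kept its size, Ltbp2 kept its direction with a different size, and Skil did not keep its direction. For the lines minus MEF 2, the values were -2.31 for Tgfbi, -3.74 for Ltbp2, -1.37 for Tgfb2, -0.999 for Smad7, 0.11 for Skil and 1.14 for Bhlhe40. For the lines minus PH 3, the values were 2.54 for Tgfbi, -1.05 for Ltbp2, -1.68 for Tgfb2, -0.77 for Smad7, -1.39 for Skil and -0.87 for Bhlhe40. PH 3 had the highest array median, 5.06, against 4.23 on MEF 2 and 4.40 to 4.45 on the lines. The differences of the lines and of MEF 2 from PH 3 can hold that shift, which was not the same for all genes. On PH 1, PH 2 and PH 3, Skil measured 8.70, 8.71 and 10.43, Alb 11.94, 11.87 and 11.90, and Cdkn2b 8.11, 7.71 and 5.89. With array medians subtracted, Bhlhe40 stood at 4.93 on PH 3, 3.75 on MEF 2 and 4.38 to 5.07 on the lines. Skil then stood at 5.37, 4.70 and 4.25 to 5.08, and Smad7 at 2.89, 3.95 and 2.20 to 3.11.

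The lines differ in the factors they received, and each had 1 array, so their differences have no replicate check and no test. Between 4a3CK and 4a3, which differ by c-Myc and Klf4, Tgfbi was lower by 3.87 in 4a3CK (a difference of -3.87), and it was the only one of the 6 members at least 2 apart (4-fold), as were 2.23% of all genes. Between 4a1CK and 4a3, 0 of 6 members were that far apart, beside 1.32% of all genes, with Tgfbi at -1.60. Between 4a3CK and 4a1CK, which differ by Foxa3 and Foxa1, Tgfbi was again the only such member, at -2.27, beside 3.16% of all genes. The other 5 members differed by -0.93 to 0.24 between lines. On the second Tgfbi probe set the 3 differences were -1.33, -0.81 and -0.52, none of them as large as 2.

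Some other pathway genes set the lines apart by 2 or more, and they were named after their values were seen. Of 65 pathway genes outside the 9, 8 did so between 4a3CK and 4a3, 2 between 4a1CK and 4a3, and 7 between 4a3CK and 4a1CK. The shares of all genes that far apart were 2.23%, 1.32% and 3.16%. Lox, which crosslinks collagen, measured 9.74 in 4a3, 6.30 in 4a3CK and 11.28 in 4a1CK, and the coreceptor Tgfbr3 measured 8.93, 6.49 and 10.26. As with Tgfbi, 4a3CK was the lowest line for both, but here 4a1CK rather than 4a3 was the highest. Smad6, Gadd45b, Id2 and Bmp4, also among the 8, had the order of Tgfbi, 4a3 above 4a1CK above 4a3CK. Smad6 measured 6.39, 6.04 and 4.12 in that order, and Id2 11.17, 9.85 and 8.44. Fst, another of the 8, was highest in 4a3CK. Ltbp1, which holds latent ligand in the matrix, measured 10.01 in 4a3, 7.39 in 4a3CK and 6.99 in 4a1CK. Ccn2, a matricellular target gene, went the other way, with 8.87 in 4a3, 10.56 in 4a3CK and 8.08 in 4a1CK.

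Likeness of pattern was measured as Pearson's r over the 8 arrays among 1690 genes with a standard deviation of at least 1, for the members that vary that much. Only Tgfbi and Ltbp2 do, with standard deviations of 2.32 and 2.10, while those of the other 4 lay between 0.50 and 0.69. The genes most like Tgfbi were Col6a1 (r = 0.987), Gli3 (r = 0.982) and Col6a2 (r = 0.978). Col6a1 and Col6a2 code for chains of collagen VI, and Gli3 for a transcription factor of Hedgehog signalling. Col6a1 measured 9.74 in 4a3, 5.91 in 4a3CK and 8.49 in 4a1CK, in the same order of lines as Tgfbi, with 10.11 and 9.74 in the MEFs and 4.12 to 4.79 in PH. The named genes most like Ltbp2 were Ebf1, a transcription factor of mesenchymal and B cells (r = 0.998), and Ntn1, which codes for the guidance protein netrin-1 (r = 0.996). Ebf1 measured 7.62 in MEF 1, 6.20 in MEF 2 and 3.16 to 3.87 on all other arrays, with MEF 1 above MEF 2 as for Ltbp2. Among the members themselves, r was 0.63 between Tgfbi and Ltbp2 and 0.83 between Skil and Bhlhe40, both of which were highest on PH 3. Genes picked for a high r on the same arrays tend to share the order of samples, so that order adds no support. The 8 points of each r share 3 cell types, and levels of the arrays differ, so these values describe patterns only.

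The rest of the pathway was read from lists of 72 genes, of which 65 were measured. In PH against MEFs, 12 of the 65 were lower and 1 was higher (all genes: 2.47% and 3.37%), with a median difference of -0.36. In the lines against MEFs 12 were lower and 1 was higher (all genes: 4.47% and 1.98%), with a median of -0.61. Of 8 fibroblast markers, 7 were lower in PH and 6 in the lines than in MEFs, and their part in the counts was not tested.

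Of 5 measured ligands, 1 was lower in PH than in MEFs, 2 were lower in the lines than in MEFs and 1 was lower in the lines than in PH. The shares of all genes that passed as lower in these comparisons were 2.47%, 4.47% and 5.64%. Tgfb3 measured 9.60 and 8.87 in the MEFs, 4.85, 4.78 and 4.54 in 4a3, 4a3CK and 4a1CK, and 5.89, 5.84 and 5.58 in PH. Its groups were apart from one another, with differences of -3.46 ± 0.27 for PH (limma adjusted p = 0.000181) and -4.51 ± 0.27 for the lines (adjusted p = 0.000108) from the MEFs. Between lines and PH the Tgfb3 difference was -1.05 ± 0.24 (limma adjusted p = 0.037), and the call ended with array medians subtracted (-0.97, adjusted p = 0.104). That last call also ended without any single line, with adjusted p-values of 0.106 without 4a3, 0.0679 without 4a3CK and 0.132 without 4a1CK, and without PH 1 (0.133) or PH 2 (0.123). It ended too with quantile normalization (0.113), each line as its own group (0.0792), a trended and robust variance (0.0691) and a block by submission (-0.73, 0.0866). Tgfb1, the main ligand in many tissues, was dim on this array, between 3.37 and 4.32 in all samples, and did not pass in any comparison. Inhba, which codes for the activin A subunit, was lower in the lines than in MEFs by -3.13 ± 0.53 (limma adjusted p = 0.0121), a call that ended without MEF 2 (adjusted p = 0.0911) and with the mean of all probe sets (-1.48, adjusted p = 0.0601).

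Of 9 measured genes of latency and activation, 4 were lower in PH than in MEFs and 3 were lower in the lines, beside 2.47% and 4.47% of all genes. Thbs2, Fbn2 and Emilin1, all matrix proteins, were in both sets of calls. The differences in PH and in the lines were -5.22 and -5.75 for Thbs2, -4.84 and -4.40 for Fbn2 and -4.16 and -4.29 for Emilin1, with limma adjusted p-values of 0.00703 or less. Without MEF 1 both Emilin1 calls ended (adjusted p = 0.0552 for PH and 0.0546 for the lines). Ltbp1 was lower in PH than in MEFs by -4.80 ± 0.76 (limma adjusted p = 0.00717), and higher in the lines than in PH by 3.82 ± 0.68 (adjusted p = 0.0129). The first of these Ltbp1 calls ended without MEF 2 (limma adjusted p = 0.0504) and the second without PH 1 (0.0549) or PH 2 (0.0501), and with a block by submission (3.62, 0.0605). Its line values of 6.99 to 10.01 held the MEF values of 9.05 and 9.17 between them and were apart from the PH values of 4.08, 4.25 and 4.60. Ltbp1 and its relative Ltbp2 thus differed in the lines, with Ltbp1 overlapping with the MEFs and Ltbp2 apart from them.

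None of the 8 receptors passed in any of the 3 comparisons, in which 2.47%, 4.47% and 5.64% of all genes passed as lower and 3.37%, 1.98% and 1.49% as higher. At an unadjusted limma p under 0.05 there were 2 of 8 for PH against MEFs, 0 for the lines against MEFs and 2 for the lines against PH. These were Tgfbr3 and Acvr2b both times, beside 16.4%, 20.9% and 20.7% of all genes. Tgfbr3 differed by -3.32 ± 0.95 between PH and MEFs (limma adjusted p = 0.0913) and by 2.60 ± 0.85 between lines and PH (adjusted p = 0.109), without overlap. Acvr2b differed by 0.66 and -0.57. Tgfbr1, the type I receptor, measured 7.85 and 8.33 in the MEFs, 9.45, 7.50 and 7.51 in 4a3, 4a3CK and 4a1CK and 9.13, 8.81 and 9.94 in PH. Line 4a3 lay among the PH samples and the other lines just below the MEFs. Tgfbr2, the type II receptor, measured 9.36 and 8.99 in the MEFs, 8.15, 9.48 and 7.05 in the lines and 8.58, 8.71 and 8.58 in PH. Its lines spread to both sides of the MEFs and PH. Without 4a3 the Tgfbr1 difference between lines and PH went from -1.14 to -1.79 and passed (limma adjusted p = 0.0427), and without 4a3CK the Tgfbr2 difference between lines and MEFs went from -0.95 to -1.58 and passed (adjusted p = 0.0437).

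Of the 4 genes of the Smad transducer list, Smad3 passed in PH against MEFs and in the lines against PH. Over all genes, 3.37% passed as higher in PH than in MEFs and 5.64% as lower in the lines than in PH. Smad3 measured 7.91 and 8.17 in the MEFs, 7.58, 7.66 and 7.57 in 4a3, 4a3CK and 4a1CK and 9.26, 9.10 and 8.95 in PH. Its PH values were all above and its line values all below the MEFs, although PH 3 (3.89) was below MEF 2 (3.94) with array medians subtracted, and the lines differed from PH by -1.50 ± 0.19 (limma adjusted p = 0.00284). The rise in PH over MEFs was 1.07 ± 0.22 (limma adjusted p = 0.0218) and ended when any one of MEF 1, MEF 2, 4a3, 4a1CK, PH 1 or PH 2 was left out, with adjusted p-values from 0.05 to 0.21. It also ended with the mean of all probe sets (0.53, limma adjusted p = 0.31), array medians subtracted (0.79, 0.228), quantile normalization (0.88, 0.0852), a trended and robust variance (0.0517), PH 1 and PH 2 averaged (0.0814), and when only the 2 compared groups were modelled or every line stood as a group (0.0935 in both). With the mean of all Smad3 probe sets the difference between lines and PH was -0.62 and did not pass (limma adjusted p = 0.121). Smad2 and Smad4 did not pass in any comparison, with differences between -0.30 and 0.68.

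Of 11 inhibitors and corepressors, Dcn was lower in PH than in MEFs, Dcn and Fst were lower in the lines than in MEFs, and Dcn, Fst and Tgif1 were lower in the lines than in PH. The shares of all genes that passed as lower were 2.47%, 4.47% and 5.64% in the same order. Dcn codes for decorin, a matrix proteoglycan that binds TGF-beta, and measured 11.41 and 9.55 in the MEFs, 3.77, 3.83 and 3.76 in 4a3, 4a3CK and 4a1CK and 6.95, 6.91 and 5.55 in PH. Its line values were the lowest and the PH values stood between, with differences of -4.01 for PH and -6.69 for the lines from the MEFs (limma adjusted p = 0.00428 and 0.000433). The Dcn difference of -2.68 between lines and PH passed (limma adjusted p = 0.0174) but not without 4a3 (0.0585), PH 1 (0.072) or PH 2 (0.0717), nor with array medians subtracted (0.0519) or quantile normalization (0.055). Fst codes for follistatin, which binds activins, and measured 9.10 and 9.57 in the MEFs, 3.78, 6.04 and 3.95 in the lines and 8.41, 7.88 and 7.78 in PH. It was lower in the lines than in MEFs by -4.74 ± 0.62 (limma adjusted p = 0.00331) and than in PH by -3.43 ± 0.55 (adjusted p = 0.00815). Tgif1, a homeodomain corepressor of Smad2 and Smad3, was lower in the lines than in PH by -1.45 ± 0.23 (limma adjusted p = 0.00765).

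Of 16 other target genes, 6 were lower and 0 higher in PH than in MEFs, and 5 were lower and 1 higher in the lines than in MEFs. Over all genes, 2.47% were lower and 3.37% higher in PH, and 4.47% were lower and 1.98% higher in the lines. The 4 largest in PH were Postn (-5.88), Col1a1 (-5.05), Timp1 (-3.39) and Hmga2 (-3.23), with limma adjusted p-values from 7.11e-05 to 0.00602, and the Timp1 call ended without MEF 1 (-3.07, adjusted p = 0.0573). The 4 largest falls in the lines were Postn (-7.49), Acta2 (-6.50), Col1a1 (-5.66) and Igfbp3 (-5.62), with limma adjusted p-values from 6.57e-05 to 0.000905. Postn codes for periostin, the closest relative of Tgfbi, and measured 11.96 and 10.65 in the MEFs, 3.85, 3.77 and 3.83 in 4a3, 4a3CK and 4a1CK and 5.55, 5.54 and 5.17 in PH. Postn was thus similarly low in all lines, where Tgfbi ranged from 4.44 to 8.32. Acta2, smooth muscle actin, rested on a probe set that can bind several transcripts, and without such probe sets its difference between lines and MEFs was -0.62 (limma adjusted p = 0.27).

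Atf3, a stress-induced transcription factor, was the 1 target gene that was higher in the lines than in MEFs (2.81 ± 0.54, limma adjusted p = 0.0186). Against PH, Igfbp3 (-4.42), Acta2 (-3.30) and Postn (-1.61) were lower in the lines and Hmga2 was higher (2.03), with limma adjusted p-values from 0.00166 to 0.0206. Hmga2 codes for a chromatin protein of embryonic cells and measured 9.45, 9.07 and 10.07 in the lines, 10.12 and 11.35 in the MEFs and 7.66, 7.22 and 7.63 in PH. The call for Postn against PH ended without any one of 4a3, 4a1CK, PH 1 or PH 2 (limma adjusted p from 0.0573 to 0.0823), that for Hmga2 without PH 2 (0.0627), and that for Acta2 without probe sets binding several transcripts (-0.32, adjusted p = 0.601). A block by submission ended the calls for Postn (-1.09, limma adjusted p = 0.0504) and Hmga2 (1.61, adjusted p = 0.0606), and array medians subtracted (0.0575) or quantile normalization (0.0608) ended that for Postn. Ccn2 did not pass as fitted, and its difference between lines and PH was -2.26 ± 0.59 (limma adjusted p = 0.0531), close to the threshold. It passed with the mean of all probe sets (adjusted p = 0.0485), without dim genes (0.0479), with quantile normalization (0.0499), with a trended and robust variance (0.0488) and with each line as its own group (0.0063). Without 4a3CK, Ccn2 was lower in the lines than in PH (-2.96, limma adjusted p = 0.00417) and than in MEFs (-2.47, adjusted p = 0.0141). Against MEFs it also passed with each line as its own group (limma adjusted p = 0.0321). Of the 12 genes of the related BMP arm, Smad1 alone passed, lower in the lines than in PH by -1.46 ± 0.25 (limma adjusted p = 0.0103). Over all lists, 9 of 65 genes were lower and 2 were higher in the lines than in PH, beside 5.64% and 1.49% of all genes, with a median of -0.22.

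**Figure D4:**
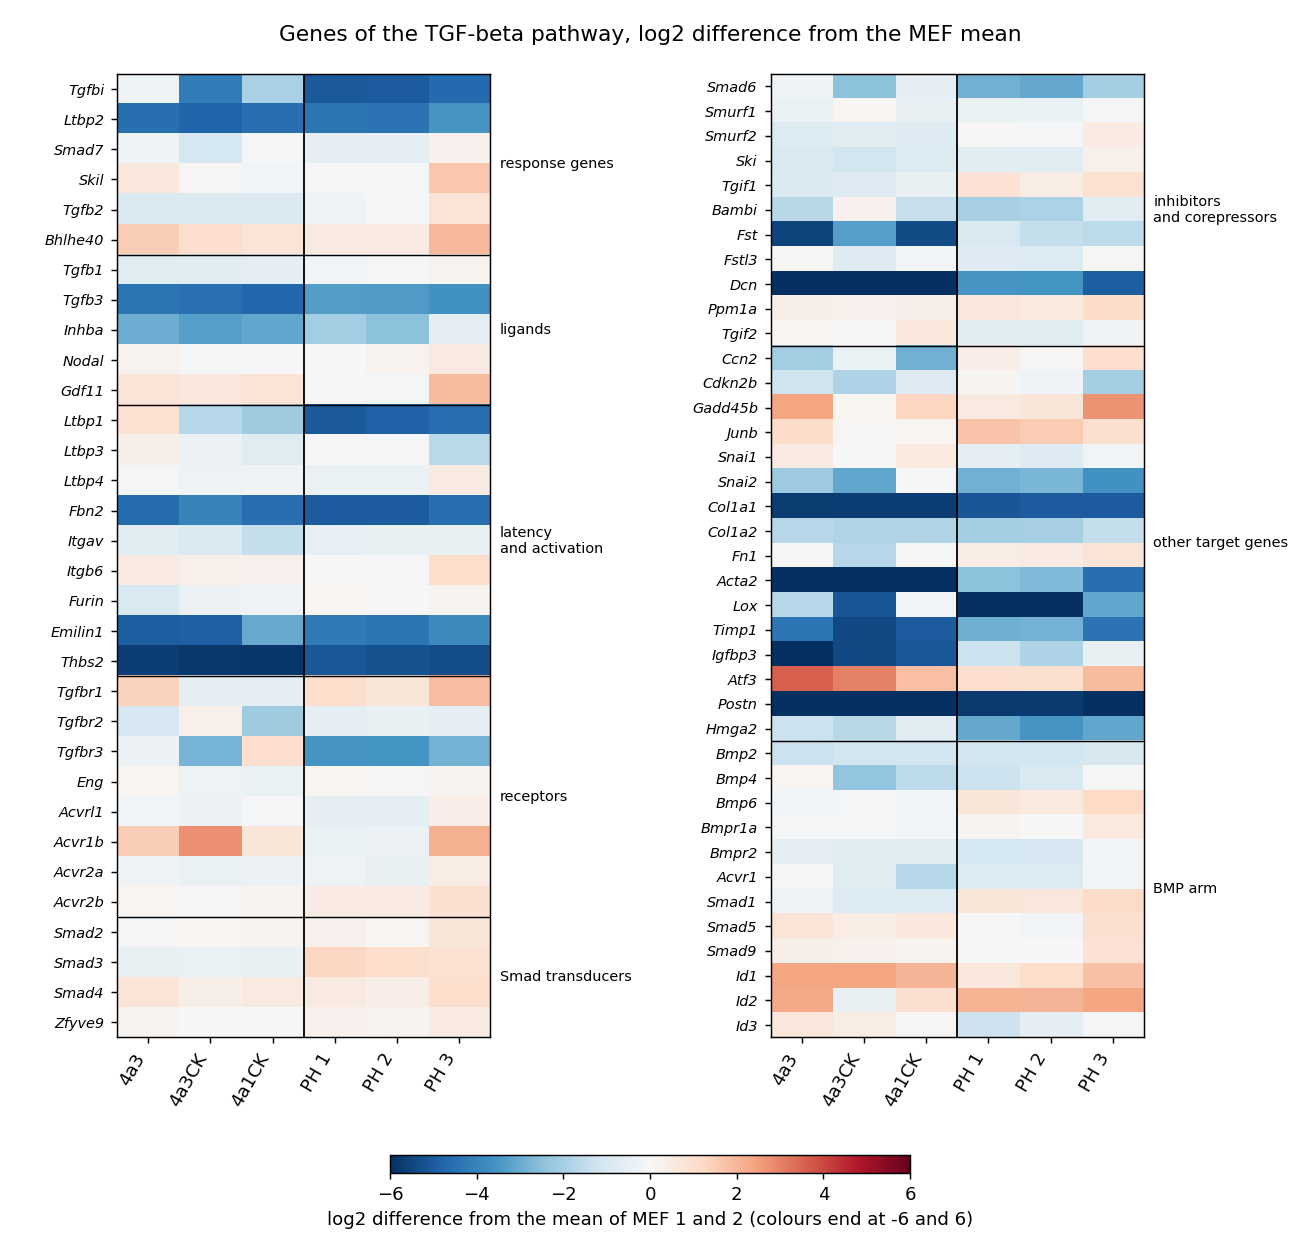
Log2 difference from the mean of the 2 MEF arrays (colour, blue lower and red higher, ending at -6 and 6) of the measured response genes and the 65 other pathway genes, 1 gene per row and 1 column for each line and PH array. Tgfbi, Lox and Tgfbr3 vary among the lines, while Ltbp2, Tgfb3, Thbs2, Fbn2, Postn and Col1a1 are blue in all 6 columns.

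Marker lists of other cell types were read in the same way. Macrophage markers averaged 5.27 and 6.15 in the MEFs, 4.36 to 4.53 in the lines and 4.90 to 5.24 in PH. Stellate cell markers averaged 4.06 to 4.66 and endothelial markers 3.84 to 4.76 over all samples, with the highest stellate means on MEF 2 and PH 3 and the highest endothelial mean on PH 3. Platelet markers averaged 5.11 and 5.39 in the MEFs and 4.16 to 4.84 elsewhere, and bile duct markers 5.31 and 5.71 in the MEFs, 6.30 to 7.28 in the lines and 6.55 to 6.77 in PH. Single markers went against these means. The macrophage marker Cd14 was higher in PH than in MEFs (3.59). Among the lines, Cd14 at 9.06 in 4a3CK and Cd68 at 6.39 in 4a1CK lay above both MEF samples, as did Clec4f, a dim marker, in every line. The platelet markers Itga2b (0.84) and Gp9 (0.57) were higher in the lines than in MEFs, without passing. Of the bile duct markers, Krt19 alone was higher in the lines than in MEFs (5.03). Krt7, Epcam and Sox9 overlapped between lines and MEFs, with Sox9 at 5.39 in 4a3, 8.04 in 4a3CK and 4.33 in 4a1CK. The part of such cells in the values of the response genes was not tested.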

How the data were processed

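Total RNA of 2 MEF, 3 iHep and 3 PH samples was measured on 8 Affymetrix perfect-match 3' arrays. The log2 values per probe set were deposited by the authors after robust multi-array averaging (RMA) in Partek, per the submitters' processing notes, which give no versions, and were used as deposited. Of 45141 probe sets, 28898 carried 1 gene symbol; each gene was represented by its brightest probe set on average (17097 genes). In limma 3.58.1 (R 4.3.3), lmFit and eBayes were run on the 8 arrays as 3 groups, with 5 residual degrees of freedom and two-sided tests, and p-values were adjusted after Benjamini and Hochberg across 17097 genes. Genes counted as passing had an adjusted p below 0.05 together with a log2 difference of 1 or more. Errors are standard errors of that model, so the spread among lines enters each of them. Single lines were compared without a test and counted at a difference of 2. The model was tested on simulated data. Arrays have no sequencing depth. The genes described, the pathway and marker lists and the thresholds were chosen with earlier results of these data known. Besides the members, genes were named from Tgfb1, Tgfb3, Tgfbr1, Tgfbr2, Smad2, Smad3, Smad4 and Ccn2 and up to 4 called genes of each list and comparison with the largest differences. Symbols that are only clone names were not named. For likeness of pattern, the 3 genes with the highest r were taken. Alternatives were other probe sets, filters, scalings, variance settings, groupings, blocks and leaving out each array. Promoters were read with Python 3.11.15 and pandas 2.3.3, and plots were drawn with matplotlib 3.10.9.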

Additional observations from a re-analysis of the deposited data

Results flagged for a closer look

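Among the genes named, Smad3, Tgif1 and Smad1 stood out because all lines lay below, and all PH samples above, both MEF samples. The difference between lines and PH was -1.5 for Smad3 (limma adjusted p = 0.00284), -1.45 for Tgif1 (adjusted p = 0.00765) and -1.46 for Smad1 (adjusted p = 0.0103). All of these passed, but Tgif1 and Smad1 were named only because they passed in this comparison, so their passing adds no support. For Smad3, the mean of all probe sets gave -0.62, which did not pass (limma adjusted p = 0.121). Smad1 measured 8.25 and 8.41 in the MEFs, 8.14, 7.51 and 7.50 in 4a3, 4a3CK and 4a1CK and 9.05, 9.03 and 9.46 in PH. Tgif1 measured 7.12 and 7.48 in the MEFs, 6.45, 6.51 and 6.84 in the lines and 8.19, 7.75 and 8.20 in PH. None of the 6 measured TGF-beta response genes showed that pattern. The differences of the lines from the MEFs did not pass for any of the 3 (limma adjusted p = 0.295, 0.16 and 0.256), and that of PH from the MEFs passed for Smad3 alone. With array medians subtracted, PH 3 fell below MEF 2 for Smad3 (3.89 and 3.94) and Tgif1 (3.14 and 3.26). Bmp6, a pathway gene outside the naming rule, lay in the same order, with 4.25 and 4.41 in the MEFs, values below both in the lines and 4.90 to 5.53 in PH. Its difference between lines and PH, -0.97 (limma adjusted p = 0.0336), was under the size required to pass.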

How the results depend on the processing

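With 8 arrays, and PH 3 with a higher array median than the others, many differences are not resolved, and Tgfb2 and Tgfb1 lie near background. In the simulated data, the model recovered 23.5% to 35% of added log2 differences of 1.5 and 65% to 72.5% of those of 2. A difference that did not pass is therefore not shown to be absent. All reversals below are of differences that did not pass; their cause was not tested.

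Of the members called for PH against MEF (2 as reported), 1 remained with the replicate block and with the crossed pairing, and 1 to 2 when arrays were left out one at a time. For iHep against MEF (1 as reported) the count was 2 without probe sets that bind several transcripts, with quantile normalization, with array medians subtracted, with each line as its own group, in models of only the compared groups, with the block by submission, the replicate block and the crossed pairing, and 1 to 2 without single arrays. For iHep against PH (0 as reported) it was 1 with each line as its own group and with the block by submission, 2 with the replicate block and the crossed pairing, and 0 to 1 without single arrays. Of the pathway genes called for iHep against PH (11 as reported), 6 passed at a difference of 2 and 6 with PH 1 and PH 2 averaged, and 6 to 14 without single arrays. Of members at least 2 apart, 0 were left for 4a3CK and 4a3 without probe sets that bind several transcripts, and 0 for 4a3CK and 4a1CK without these and with the mean of all probe sets. Over all genes, calls for PH against MEF (1000) were 617 at a difference of 2, 575 without MEF 1 and 612 without MEF 2. For iHep against MEF (1103) they were 545 at a difference of 2, 1932 with the replicate block, 2052 with the crossed pairing, 471 without MEF 1, 574 without MEF 2, 564 without 4a3 and 1874 without PH 3. For iHep against PH (1219) they were 458 at a difference of 2, 2640 with the replicate block, 2713 with the crossed pairing, 588 with PH 1 and PH 2 averaged, 604 without 4a3, 576 without PH 1 and 610 without PH 2.

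The replicate numbers give only 2 pairs (MEF 1 with PH 1, MEF 2 with PH 2), which the labels do not tie together. The lines and PH 3 have no number and shared a block of their own, in the crossed pairing too. In these fits the lines are thus set against PH 3 alone, and against the MEFs only by way of the PH samples. Their differences therefore carry the level of PH 3 and are not an effect of pairing. The deviations of same-numbered arrays correlated at -0.197 over 17097 genes. The pairing is therefore not taken as real, and the crossed pairing was added after seeing the data. With the replicate block the Tgfbi difference for PH against MEF was -5.02 (limma adjusted p = 0.137). The replicate block turned the PH minus MEF difference of Skil to -0.12, Tgfb2 to -0.165 and Tgfb1 to -0.10, the iHep minus MEF difference of Skil to -1.51, Bhlhe40 to -0.35, Tgfbr1 to -0.91, Smad2 to -0.47 and Smad4 to -0.030, and the iHep minus PH difference of Bhlhe40 to -0.87.

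Quantile normalization turned PH minus MEF of Tgfb2 to -0.10 and Tgfb1 to -0.24 and iHep minus PH of Smad4 to 0.017. Subtracting array medians turned PH minus MEF of Tgfb2 to -0.11 and Tgfb1 to -0.27 and iHep minus MEF of Tgfbr1 to -0.13 and Smad2 to -0.12. The block by submission turned iHep minus MEF of Skil to -0.32, Tgfbr1 to -0.32 and Smad2 to -0.22 and iHep minus PH of Bhlhe40 to -0.43. The mean of all probe sets turned iHep minus PH of Tgfbr2 to 0.014 and Smad2 to 0.21, and averaging PH 1 with PH 2 turned that of Bhlhe40 to -0.15. Leaving out single arrays, PH minus MEF ran from -0.78 to 0.23 for Smad7, -0.12 to 0.74 for Skil, -0.35 to 0.67 for Tgfb2 and -0.10 to 0.072 for Tgfb1. In the same way iHep minus MEF ran from -0.999 to 0.0051 for Smad7, -0.029 to 0.39 for Skil, -0.59 to 0.39 for Tgfbr1 and -0.26 to 0.40 for Smad2. For iHep minus PH it ran from -0.40 to 0.064 for Smad7, -0.53 to 0.34 for Skil, -0.16 to 0.57 for Bhlhe40, -1.02 to 0.19 for Tgfbr2 and -0.25 to 0.065 for Smad4.

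Leaving out dim genes, which removed 1717, and a trended and robust variance moved none of these counts by over 1.5 times.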
